A study of Homo sapiens with 14 samples.

Results

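The domain around MYC and PVT1 at 8q24 carried 49 KMT2D peaks, of 494 on chromosome 8 and 13808 in the whole list. Its members were the peaks of the hg19 (GRCh37) list on chromosome 8 whose summit, the position of highest ChIP coverage, lay between 127.5 and 130.5 Mb. They were placed against MYC (128.748 to 128.754 Mb) and PVT1 (128.807 to 129.113 Mb), limits that are known to the nearest kb. The values came from 1 KMT2D ChIP-seq library of wild-type SCC23 cells (KMT2D-WT), deprived of glucose for 6 h. SCC23 is an established cell line derived from a squamous cell carcinoma of the head and neck (HNSCC). KMT2D binding in KMT2D-KO or glucose-fed cells was not analysed here, nor were the input and histone libraries. With 1 library there were no replicates, so no difference below was tested across samples. Every interval covers counting error only or, for medians, only the spread among peaks of this library.

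KMT2D is a histone methyltransferase that places H3K4 monomethylation at enhancers, where it works together with the acetyltransferases that deposit H3K27ac. MYC encodes a transcription factor that pairs with MAX and drives growth, ribosome production and glycolysis, and it is among the most often amplified oncogenes of solid tumors. PVT1 is the long non-coding RNA gene that follows MYC in the direction of transcription. The land around both is a gene desert known for tissue-specific enhancers that reach MYC over long distances. In the RefSeq annotation of GRCh38, which was used here for the order of genes and not for positions, 38 genes lay between LRATD2 and GSDMC. Of these, 23 were long non-coding RNA genes, and POU5F1B and MYC were the 2 protein-coding ones. The protein-coding genes LRATD2 and GSDMC are not in these counts, and whether either lies inside the domain was not determined.

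The domain as a whole was rich in KMT2D peaks, although large parts of it held none. It held 16.3 peaks per Mb (95% Poisson interval 12.1 to 21.6), beside 3.15 per Mb (2.87 to 3.46) on the rest of chromosome 8 and 4.48 per Mb (4.40 to 4.55) on the rest of chromosomes 1 to 22 and X. The density was thus 5.18 times that of the rest of its own chromosome (95% exact interval 3.78 to 6.97) and 3.65 times that of the other chromosomes and the rest of chromosome 8 together (2.70 to 4.83). Because peaks gather in groups, these intervals are narrower than the real uncertainty. The domain was also chosen with earlier results of these data known, and no allowance was made for that choice. When chromosomes 1 to 22 and X were cut into windows of 3 Mb, the other 46 windows of chromosome 8 held a median of 7.5 peaks and at most 36. The domain therefore had more peaks than any other window of chromosome 8. Among all 954 other windows the median was 9 peaks (interquartile range 2 to 20), and 21 windows (2.2%) held 49 or more. The fullest window, on chromosome 11, reached 139, and 125 windows held no peak. The lengths behind the densities include such empty stretches, and sequence that cannot be mapped was not taken out of them.

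**Figure D1:**
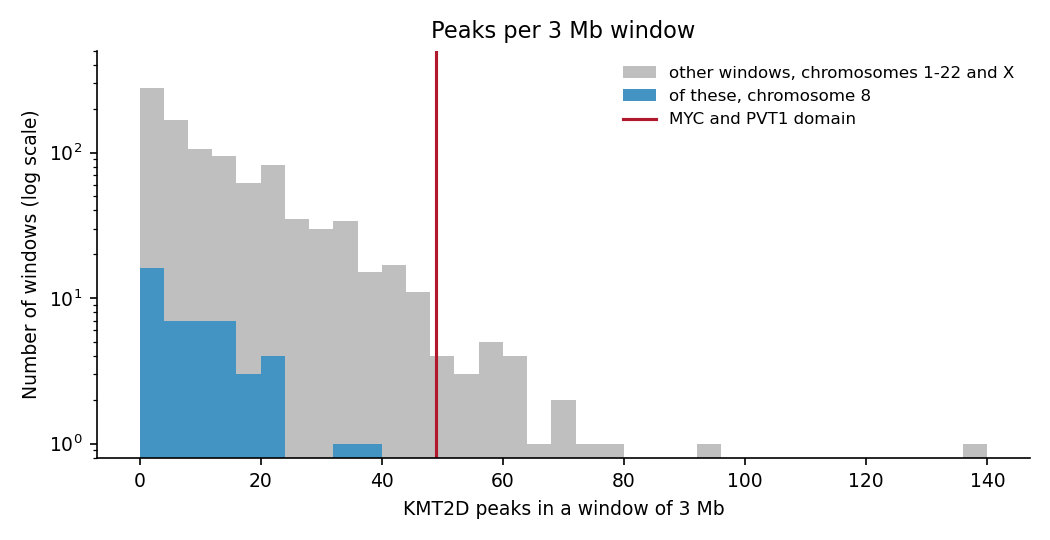
Number of 3 Mb windows (vertical axis, log scale) by the number of KMT2D peaks whose summit they hold (horizontal axis), for all other windows of chromosomes 1 to 22 and X in grey and for those of chromosome 8 in blue. The red line marks the MYC and PVT1 domain at 49 peaks, above all 46 other windows of chromosome 8 and below the fullest window of the list at 139.

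The 49 peaks were spread unevenly over the domain. On the centromeric side of MYC there were 25 peaks in 1.248 Mb, or 20.0 per Mb (13.0 to 29.6). The 6 kb of MYC itself held 2 peaks, and the 53 kb between MYC and PVT1 held 0. The body of PVT1 held 10 peaks, or 32.7 per Mb (15.7 to 60.1), and the telomeric side 12, or 8.65 per Mb (4.47 to 15.1). PVT1 was 2.26 times as dense as the rest of the domain, with an interval that began at 1 (1.00 to 4.61). This ratio was 2.2 (0.736 to 5.53) when only peaks with a q-value of at most 0.05 were kept. It was 1.58 (0.699 to 3.26) when the domain was narrowed to 1 Mb on either side of the start of MYC. All 3 longer zones exceeded the rest of chromosome 8, by 6.36 times on the centromeric side (4.07 to 9.51), 10.4 times in PVT1 (4.94 to 19.3) and 2.75 times on the telomeric side (1.41 to 4.84).

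**Figure D2:**
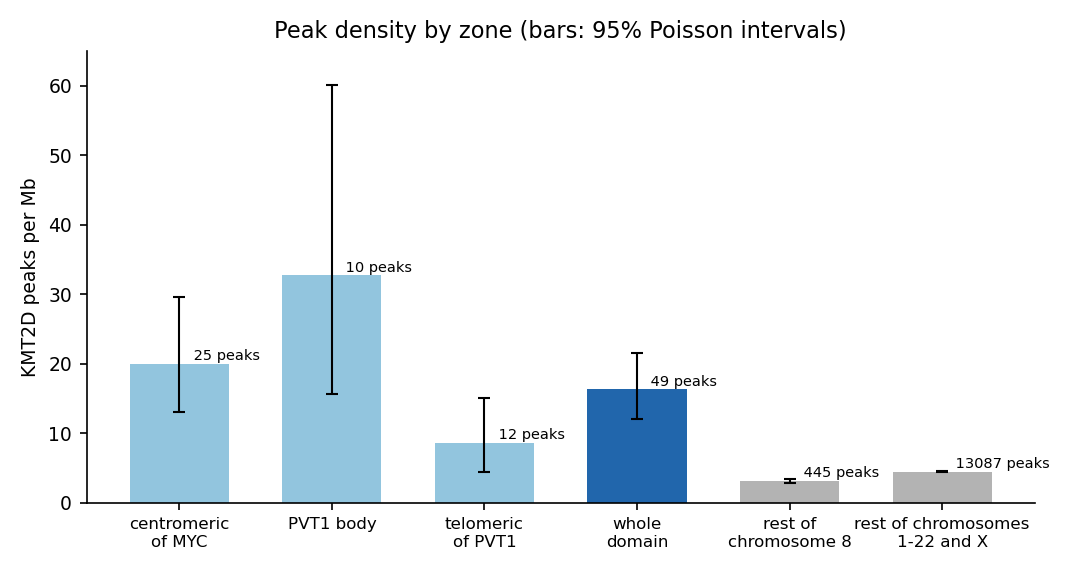
KMT2D peaks per Mb in the 3 longer zones of the domain (light blue), the whole domain (dark blue) and the rest of chromosome 8 and of chromosomes 1 to 22 and X (grey), with 95% Poisson intervals and the number of peaks beside each bar. PVT1 and the centromeric side stand highest at 32.7 and 20.0 peaks per Mb, with intervals that overlap each other.

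Most peaks lay within 750 kb of the start of MYC. Below it, 5 summits lay within 250 kb, 5 between 250 and 500 kb and 11 between 500 and 750 kb. Above it, the same bands held 11, 6 and 5. Beyond 750 kb only 4 peaks were found on the centromeric side and 2 on the telomeric side. Of 30 bins of 100 kb, 14 held no peak, while 6 bins held 3 or more and together 33 of the 49 peaks. The longest stretch without a peak ran for 700 kb from chr8:129800243-130500000, up to the edge of the domain, followed by 322 kb at chr8:129356442-129678258. Neighbouring peaks were a median of 17.5 kb apart (interquartile range 3.54 to 50.3 kb), against 29.6 kb (4.79 to 139 kb) elsewhere on chromosomes 1 to 22 and X.

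**Figure D3:**
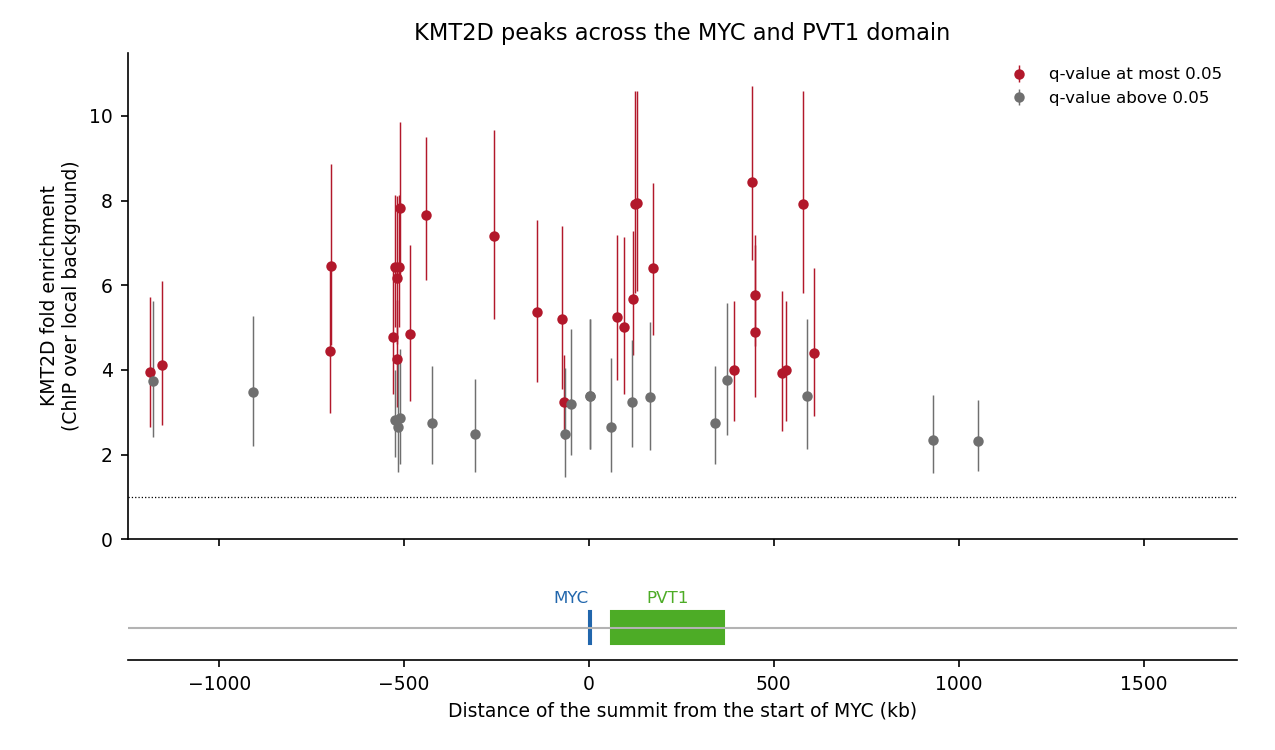
Deposited KMT2D fold enrichment (vertical axis) of the 49 peaks by the distance of their summit from the start of MYC in kb (horizontal axis), with MYC and PVT1 drawn to scale below and a dotted line at a fold enrichment of 1, in red for a q-value of at most 0.05 and in grey above. Vertical lines are intervals from the exact 95% Poisson interval of the ChIP fragments with the background held fixed. The 2 MYC peaks sit at 3.38, whereas the peaks that reach 7 or more lie at a distance on both sides.

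Signal at MYC itself was weak. Fold enrichment is the ratio, at the summit, of ChIP coverage to the local background estimated from the control, and the number of ChIP fragments behind it was rebuilt from the deposited values. The first MYC peak, at chr8:128749702-128750089, had its summit about 2 kb past the start of the gene, with 16 fragments (exact 95% Poisson interval 9.15 to 26) and a fold enrichment of 3.38. The second, at chr8:128750701-128751230, followed 611 bp later with the same values, 16 fragments and 3.38. Both had a q-value, the p-value after correction for multiple testing, of 0.217, so that neither reached 0.05. The local background at both equalled the genome-wide level, which corresponds to 2.88 ChIP fragments. The nearest peak before the gene lay 48 kb away, at chr8:128699467-128699691, with 15 fragments, a fold enrichment of 3.20 and a q-value of 0.994.

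The start of PVT1 was marked by a peak at chr8:128807739-128808050 that was weaker still, with 12 fragments (6.20 to 21), a fold enrichment of 2.66 and a q-value of 1. Its summit lay within about 1 kb of the gene's start, and the next peak before it was the second MYC peak, 56.5 kb away. Deeper in the gene the signal was stronger. Along its first 153 kb 9 peaks were found, of which 6 had a q-value under 0.05, while the remaining 153 kb held 1 peak with a fold enrichment of 2.74. The strongest, at chr8:128879257-128879786 and chr8:128872006-128872553, had 42 (30.3 to 56.8) and 41 fragments (29.4 to 55.6), a fold enrichment of 7.95 and 7.92 and q-values of 1.34e-09 and 8.34e-10. Both stood over a background within 1.04 times the genome-wide level. Their fold enrichment did not differ beyond counting error, and the intervals of both lay above those of the MYC peaks.

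Other PVT1 peaks filled the range between. The most distal of the stronger ones, at chr8:128919995-128920470, combined 48 fragments with a fold enrichment of 6.42. The peak at chr8:128865952-128867238, 1287 bp wide, counted 57 fragments at a fold enrichment of 5.67. A pair of smaller ones near the start of the gene, at chr8:128822208-128822798 and chr8:128843894-128844137, had 34 and 26 fragments and a fold enrichment of 5.26 and 5.01. These 4 passed a q-value of 0.05. The 2 others in the first 153 kb did not, namely a 1339 bp peak at chr8:128863741-128865079 with 23 fragments and a fold enrichment of 3.25, and a peak at chr8:128911600-128911867 with 16 fragments and 3.35. After 128920470 there was no peak for 169 kb, until chr8:129089111-129089354 with 19 fragments and a q-value of 1.

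To find the dense stretches, neighbouring peaks were joined over gaps of up to 12500 bp, and groups of at least 3 peaks were kept. There were 4 such stretches, which held 19 of the 49 peaks (38.8%, 95% Wilson interval 26.4 to 52.8%), beside 33.8% of all peaks of chromosomes 1 to 22 and X. The largest lay on the centromeric side, 510 to 530 kb before MYC, and packed 9 peaks into 19.2 kb (chr8:128218474-128237658). Their fold enrichment ran from 2.65 to 7.83 and their fragments from 12 to 67, and 6 of the 9 passed a q-value of 0.05. Highest was the last of them, chr8:128237199-128237658, with 67 fragments (51.9 to 85.1) and a fold enrichment of 7.83. The widest peak of the domain, 1574 bp at chr8:128234319-128235892, reached a fold enrichment of 6.43 with 65 fragments, as did the peak at chr8:128222455-128223000. The local background of the stretch was raised, with a median of 2.18 times the genome-wide level.

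The second stretch was the closest to MYC, 65 to 74 kb before its start (chr8:128673592-128683235). It held 3 peaks in 9.64 kb with a fold enrichment of 5.20, 3.24 and 2.48. The middle one had 40 fragments, the most of the 3, but stood over a background of 3.65 times the genome-wide level, the highest of the domain, which 2 telomeric peaks shared. The third stretch lay inside PVT1, 116 to 132 kb after the start of MYC (chr8:128863741-128879786), and comprised 4 of the PVT1 peaks described above, with 163 fragments over their summits. The fourth lay on the telomeric side, 441 to 449 kb after MYC (chr8:129188823-129197245), and all 3 of its peaks passed a q-value of 0.05.

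**Figure D4:**
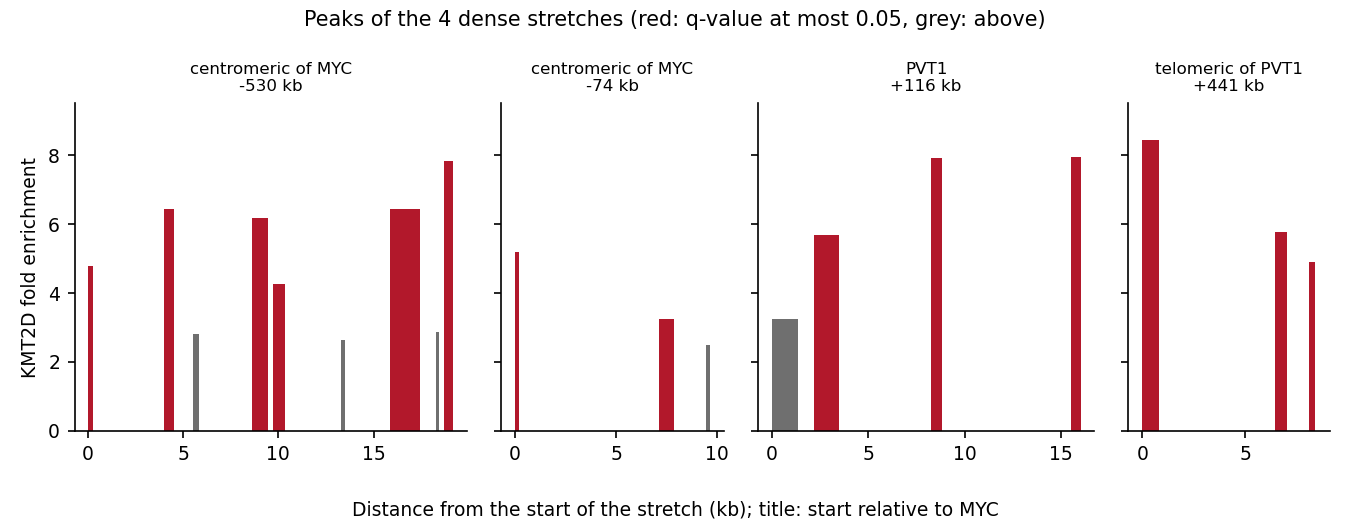
Fold enrichment (height) and extent (width, in kb from the start of the stretch) of the peaks in the 4 dense stretches, each headed by its zone and its start relative to MYC, in red for a q-value of at most 0.05 and in grey above. The stretch 530 kb before MYC holds 9 peaks, 3 of them grey, and the stretch 441 kb after it holds the highest peak of the domain at 8.45.

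The highest fold enrichment of the domain, 8.45, belonged to the fourth stretch, at chr8:129188823-129189653 with 64 fragments (49.3 to 81.7). It ranked 1046th among the 13136 peaks of chromosomes 1 to 22 and X. Next to it, chr8:129195293-129195883 had 73 fragments but a fold enrichment of 5.76, over a background of 3.65 times the genome-wide level. Further out, a single peak 579 kb after MYC at chr8:129326598-129327129 reached 7.92 with 41 fragments. On the centromeric side, 2 single peaks stood out, chr8:128306228-128307514 with 78 fragments, the most of any member, and a fold enrichment of 7.67, and chr8:128490567-128491298 with 38 fragments and 7.17. The peak at chr8:128050980-128051211, 697 kb before MYC, had 33 fragments and 6.46.

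Of the 10 members with the highest fold enrichment, 6 lay on the centromeric side, 2 in PVT1 and 2 on the telomeric side, and none in MYC. In the same order, these zones held 51%, 20.4%, 24.5% and 4.08% of all members, so the split was near that of the members as a whole. The intervals of the 10 all overlapped, so that the order among them was not resolved. Against the MYC peaks, whose intervals reached up to 5.20, the intervals of 7 of the 10 lay wholly above, with the background held fixed. None of the other 39 members did so. The 10 had been picked by the same fold enrichment, and no allowance was made for that choice. By fragments alone, the interval of 15 of the 49 peaks lay above those of the MYC peaks.

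The remaining members were weaker or isolated. Before MYC, 3 peaks between 1156 and 1188 kb had a fold enrichment of 3.75 to 4.11, the single peak at 908 kb had 3.47, and the peak at 700 kb had 4.45. Closer in, peaks at 484 and 140 kb before MYC had 4.84 and 5.36 and passed a q-value of 0.05, whereas those at 424 and 309 kb had 2.74 and 2.49 with a q-value of 1. On the telomeric side, 6 further peaks between 373 and 608 kb after MYC ran from 3.38 to 4.39, and 4 of them passed. The last 2, at 930 and 1052 kb, had the lowest fold enrichment of the domain, 2.34 and 2.33, over backgrounds of 2.74 and 3.65 times the genome-wide level.

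As a group, the peaks of the domain had a median strength close to that of the rest of the list, although single members varied widely. Median fold enrichment was 4.11 (95% interval of the median 3.47 to 5.01), beside 4.24 (4.05 to 4.33) on the rest of chromosome 8 and 4.01 (3.97 to 4.10) on the rest of chromosomes 1 to 22 and X. A median of 26 fragments lay over the summit (range 11 to 78), beside 25 elsewhere. In the domain 30 peaks passed a q-value of 0.05 (61.2%, Wilson interval 47.2 to 73.6%), beside 58.8% of all peaks of chromosomes 1 to 22 and X, and 9 peaks had a q-value of 1. By zone, 16 of 25 passed on the centromeric side, 0 of 2 in MYC, 6 of 10 in PVT1 and 8 of 12 on the telomeric side. The upper quartile of the list, a fold enrichment of 5.55, was reached by 14 members (28.6%, 17.8 to 42.4%). Wider than 1000 bp were 4 members (8.16%, 3.22 to 19.2%), beside 5.63% of all peaks. The intervals of these shares all took in the share of the whole list.

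The local background had a median of 1.12 times the genome-wide level in the domain (95% interval 1.04 to 1.83), 1.00 on the rest of chromosome 8 and 1.11 on the rest of chromosomes 1 to 22 and X. It was at least 2 times the genome-wide level at 11 members (22.4%, Wilson interval 13.0 to 35.9%), beside 15.2% of all peaks. At 20 of the 49 members it equalled 2, 3 or 4 whole control fragments, beside 2895 of all 13136 peaks, a larger share in the domain. The denominator of the fold enrichment of these members thus rests on very few fragments. The intervals given for fold enrichment, which hold it fixed, are too narrow. Without the peaks of raised background, 38 members were left and the density was 4.60 times that of the rest of chromosome 8 (3.20 to 6.43). This cut kept the 10 members at 2 control fragments, which is 1.83 times the genome-wide level, so it removed only part of the raised backgrounds. The copy number of 8q24 in SCC23 cells was not analysed here.

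**Figure D5:**
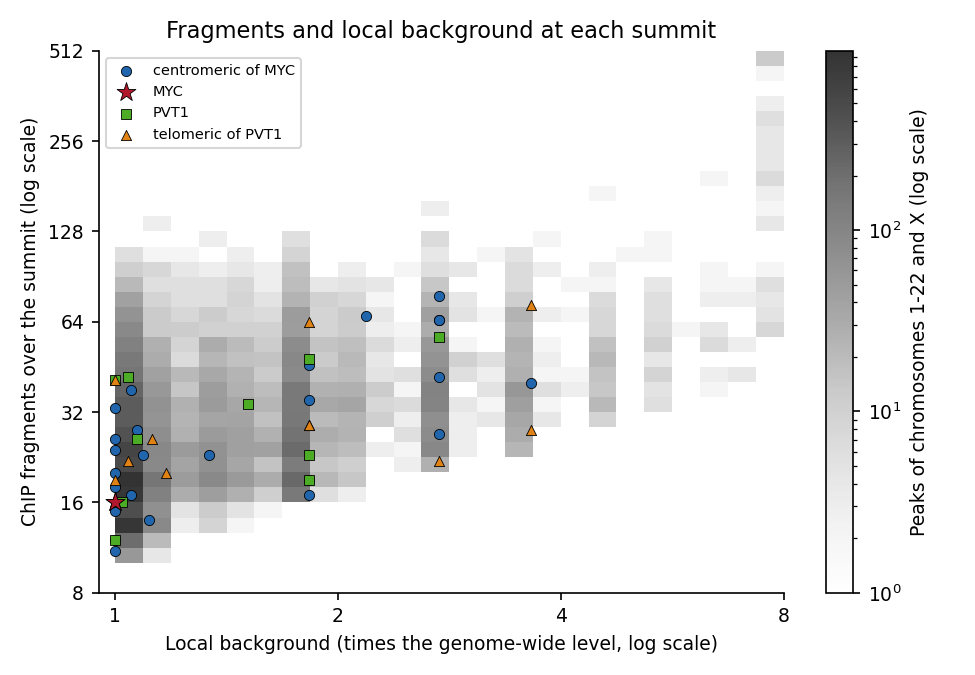
ChIP fragments over the summit (vertical axis, log scale) and local background in multiples of the genome-wide level (horizontal axis, log scale) for the 49 peaks, marked by zone, over the number of peaks of chromosomes 1 to 22 and X in each cell of the grid (grey, log scale, values beyond the axes drawn in the outermost cells). The members lie within the area of the list, at 11 to 78 fragments and at most 3.65 times the genome-wide background, and the list reaches further on both axes. The 2 MYC peaks (1 star, over each other) lie at 16 fragments and a background of 1.00.

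The edges of the domain differed from each other. The neighbouring 3 Mb window below the domain held 22 peaks and the one above it 10, and the first 100 kb inside the lower edge held 3. Just inside the lower edge lay chr8:127559673-127559976, 60 kb from it, with 23 fragments and a fold enrichment of 3.95, and just outside lay chr8:127466441-127466808, 33 kb from it, with 42 fragments and 5.66. The last member, chr8:129799993-129800242, was 700 kb short of the upper edge, with 28 fragments and 2.33, and the next peak, chr8:130719924-130720124, lay 220 kb beyond it with 17 fragments and 3.56. Within 1 Mb to either side of the start of MYC there were 45 peaks, and the density was then 7.13 times that of the rest of chromosome 8 (5.12 to 9.70).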

How the data were processed

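KMT2D ChIP-seq peaks of 1 wild-type, glucose-deprived SCC23 library were analysed, out of 14 labelled samples grouped by antibody and genotype. The authors aligned the reads to hg19 with Bowtie2 and ran MACS2 on the uniquely mapped ones, with a threshold on the p-value. No peak had a p-value above 0.00984 and the control is not named. The deposited columns hold the fold enrichment (a ratio of scaled ChIP coverage to local background, a pseudocount of 1 added to each), the −log10 of the p-value and of the q-value at the summit, and a score derived from the p-value.

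The number of fragments over each summit and its local background were solved from fold enrichment and p-value taking the scale as 0.381 and the genome-wide background as 1.10 scaled fragments, to within 0.0011 of each deposited −log10 p for all 13808 peaks. Total ChIP coverage exceeded the control's 2.63 times. The rebuilding was tested only on lists simulated with the same formulas for fold enrichment and p-value. That test cannot show whether the formulas hold for the deposited list. A background counted as whole fragments within 0.002.

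The length of a chromosome in the densities ran between its outermost peaks. Intervals are exact Poisson, exact conditional binomial, Wilson or, for medians, from order statistics, all at the 95% level. Windows of 3 Mb were tiled in step with the domain. Named were all peaks in MYC and PVT1, the peaks next to their starts, the 10 highest, those of stitched clusters and those at the edges. The domain, the gene limits and the lists were chosen with earlier results of these data known. The reference at hand was GRCh38, so no annotation or sequence was joined to a peak, no coordinate was converted and no other gene of the region was placed. Alternatives were stricter q-value thresholds, only peaks at or above the median fold enrichment of all 13808, overlap in place of the summit, merging within 1000 bp, a narrower domain, other gaps and cluster sizes, and, chosen after seeing the data, leaving out peaks of raised background. The software was matplotlib 3.10.9, pandas 2.3.3, scipy 1.17.1 and numpy 2.4.6 under Python 3.11.15.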

Additional observations from a re-analysis of the deposited data

How the results depend on the processing

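Among 46 values recomputed under alternatives, 10 moved beyond the range set for the result, 36 did not and 0 changed direction. The 36 include the change from 4 to 6 clusters and several PVT1 density ratios with intervals that took in 1, so the tally is a coarse guide. The domain held 30 peaks at a q-value of at most 0.05, 25 at 0.01 and 29 among peaks at or above a fold enrichment of 3.93, the median over all 13808 peaks, against 49, since those lists hold fewer peaks. Restricting it to 1 Mb on either side of the start of MYC moved the density ratio to 7.13 against the rest of chromosome 8 and to 5.03 against chromosomes 1 to 22 and X, because the outer parts hold few peaks. Median fold enrichment was 5.31 and 5.76 at the q-value thresholds of 0.05 and 0.01, and the median number of fragments was 36.5 at 0.05, by construction. The 4 clusters with 19 peaks became 6 with 29 peaks at gaps of up to 25000 bp, 2 with 12 at 5000 bp, 1 with 9 when 5 peaks were required, and 3 with 12 under each of the q-value and fold enrichment thresholds. Under the other alternatives the density ratios lay between 4.60 and 5.29 against the rest of chromosome 8 and between 3.33 and 4.04 against chromosomes 1 to 22 and X. No paired analysis was possible because a single sample was analysed. With 11 to 78 fragments over each summit in a single library, the order of most peaks is not resolved, and which of the 19 peaks with a q-value above 0.05 would recur in another library was not tested.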
